A study of Mus musculus with 5 samples.

Results

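The genes described here encode the machinery by which a cell shows peptides from its own proteins on MHC class I molecules. They are H2-K1, H2-D1, B2m, Tap1, Tap2, Tapbp, Psmb8, Psmb9, Psmb10 and Nlrc5, chosen by name. All 10 had a row in the deposited table of 14462 rows, and all 10 were among the 12777 rows that reached 10 in 2 or more libraries and were tested. RNA was measured in CD45-sorted cells from mouse lung, CD45 being a surface protein of nearly all leukocytes. The groups are labelled IR (2 libraries) and ctrl (3 libraries), in a series titled for radiotherapy, and lungs were taken 3 days after IR. Both groups have the tumour label MC38/MC38, MC38 being a colon adenocarcinoma line of the mouse; the labels do not say what the doubled name means, what was irradiated or how ctrl was handled. The labels state no strain, age, sex or radiation dose, and do not say whether each library came from its own animal, so p-values reflect the spread among these libraries, part of which may be technical.

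A class I molecule is a heavy chain bound to beta-2 microglobulin and a short peptide. Immunoproteasomes, in which catalytic subunits induced by interferon replace the constitutive ones, cut cytosolic proteins into peptides, the TAP transporter pumps these into the endoplasmic reticulum, and tapasin holds empty class I molecules next to TAP until a peptide binds. Cytotoxic T cells recognise the peptide, and receptors on NK cells and myeloid cells read the class I molecule itself. Nearly all nucleated cells carry class I, leukocytes at high levels, and interferon gamma raises most of these genes, in part through the transactivator Nlrc5.

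RefSeq promoter windows on GRCm38.p6, from 250 bases before to 50 after a start site, were found for 8 of the 10 genes. Those of H2-K1 and H2-D1 are printed because both genes carry the same set of class I promoter motifs and their ratio is given below. That of Tap1 is printed because Psmb9 starts from the same stretch in the other direction. The windows are chr17:34000298-34000597 on the minus strand for H2-K1, the upstream of its 2 RefSeq starts, chr17:35262844-35263143 on the plus strand for H2-D1 and chr17:34187306-34187605 on the plus strand for Tap1. Capitals mark matches on either strand to 5 short motifs: an interferon-response core (GAANNGAAA), a GAS element (TTCNNNGAA), a kappa B site (GGGGATTCC), a CCAAT box (CCAAT) and an X2-type element (TGACGC).
H2-K1: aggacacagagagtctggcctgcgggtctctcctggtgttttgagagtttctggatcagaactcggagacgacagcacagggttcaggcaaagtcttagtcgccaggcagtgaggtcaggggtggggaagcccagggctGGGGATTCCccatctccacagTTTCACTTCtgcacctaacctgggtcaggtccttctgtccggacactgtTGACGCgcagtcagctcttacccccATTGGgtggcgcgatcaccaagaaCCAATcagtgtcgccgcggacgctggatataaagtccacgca
H2-D1: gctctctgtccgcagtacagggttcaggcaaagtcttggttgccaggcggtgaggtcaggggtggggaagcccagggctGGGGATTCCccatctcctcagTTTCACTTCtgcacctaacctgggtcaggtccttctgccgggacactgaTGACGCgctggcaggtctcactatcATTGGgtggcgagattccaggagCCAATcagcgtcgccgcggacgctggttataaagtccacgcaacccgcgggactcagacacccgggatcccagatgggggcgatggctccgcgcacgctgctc
Tap1: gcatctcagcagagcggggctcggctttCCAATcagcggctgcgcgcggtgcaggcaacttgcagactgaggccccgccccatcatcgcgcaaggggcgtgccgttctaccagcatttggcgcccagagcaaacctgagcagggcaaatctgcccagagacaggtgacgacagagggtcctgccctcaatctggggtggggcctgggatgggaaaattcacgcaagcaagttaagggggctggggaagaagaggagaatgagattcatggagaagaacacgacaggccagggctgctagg
The H2-K1 and H2-D1 windows aligned over 239 bases, of which 214 (89.5%) were identical. Counted from the first base of the kappa B match, both had the interferon-response core at 21 bases, the X2-type element at 70 bases and an inverted CCAAT box at 95 bases. A further CCAAT box lay at 119 bases in H2-K1 and at 118 bases in H2-D1. Of 32851 RefSeq promoter windows of the same length, 7.52% held the interferon-response core, 0.25% the kappa B site, 7.4% the X2-type element, 37.4% the CCAAT box and 8.3% the GAS element. No match of 1 motif overlapped a match of another in these windows. The start sites of Tap1 and Psmb9 lie 226 bases apart and their windows share 275 bases, in which a CCAAT box was the 1 motif matched. A match is a run of letters, not a shown binding site.

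The libraries totalled 7544034 (IR replicate 1) and 8414753 (IR replicate 2), against 7232126 to 7425923 in ctrl, in read counts that the authors had scaled between libraries. The values are referred to below as scaled counts. Ptprc, which encodes CD45, had 17369 and 27247 in the IR libraries and 15543 to 15842 in ctrl. Neutrophil markers summed to 63379 and 120645 scaled counts in the IR libraries and 25521 to 45836 in ctrl; all 8 were higher in both IR libraries than in any ctrl library (15.2% of all genes tested), and 4 passed the test as higher (1.14% of all genes). T cell markers summed to 4144 and 3478 in the IR libraries and 5569 to 6477 in ctrl, B cell markers to 6283 and 4903 in the IR libraries and 6438 to 10883 in ctrl, and 1 of 8 markers in each list passed as lower (0.36% of all genes). Alveolar macrophage markers summed to 11435 and 10193 in the IR libraries and 10763 to 11800 in ctrl. Of these 8 markers, 5 were lower in both IR libraries than in any ctrl library (16.3% of all genes), 2 had positive fold changes and 0 passed. Markers of lung epithelium, which the sort should remove, summed to 116909 and 56620 in the IR libraries and 22658 to 26594 in ctrl (2 of 8 passed as higher). Most of that sum was Scgb1a1, a club cell gene, with 103972 and 50989 in the IR libraries and 18790 to 23115 in ctrl. Epcam, a surface marker of epithelium, went the other way without passing, with 45.8 and 74.8 in the IR libraries and 133 to 185 in ctrl (log2 fold change -1.45), and Sftpc, of alveolar type II cells, had a log2 fold change of -0.57 with overlapping groups. The fibroblast genes Col1a1, Col1a2, Col3a1 and Pdgfra summed to 0.9 and 61.3 in the IR libraries and 0 to 28.3 in ctrl. In such bulk samples, fewer cells of a type and less RNA per cell cannot be told apart, and the part of these shifts in the values below was not tested.

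Setting IR against ctrl addresses how RNA levels in leukocytes of the lung differ after IR. None of the 10 class I presentation genes passed limma with an adjusted p under 0.05, where 1.5% of all 12777 genes did (1.14% as higher and 0.36% as lower in IR). At an unadjusted p under 0.05 there was 1, H2-D1, beside 15.0% of all genes. Fold changes were positive for 5 genes and negative for 5, with a median log2 fold change of 0.06, against -0.05 over all genes tested. The groups did not overlap for 4 of the 10, a background of 31.5%: H2-D1 and Tapbp were higher in both IR libraries than in every ctrl library (15.2% of all genes), and Psmb10 and Nlrc5 were lower (16.3%). The 95% interval of the log2 fold change lay within a 2-fold change either way for 7 of the 10, compared with 27.9% of all genes. The exceptions were Tap1, Psmb10 and Nlrc5. This comparison is not matched for level: intervals tend to narrow as level rises, and all 10 lay above the median row of every library (99.2 to 109 scaled counts). Scaling to equal library totals moved the median of all genes to -0.17 and that of these 10 to -0.06, so the sign of their median depends on the scaling. Their distance above the median of all genes, 0.11, can hardly change with such scaling, which shifts all genes nearly alike. With 1 library left out, that distance ran from 0.03 (without ctrl replicate 2) to 0.16 (without ctrl replicate 3).

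**Figure D1:**
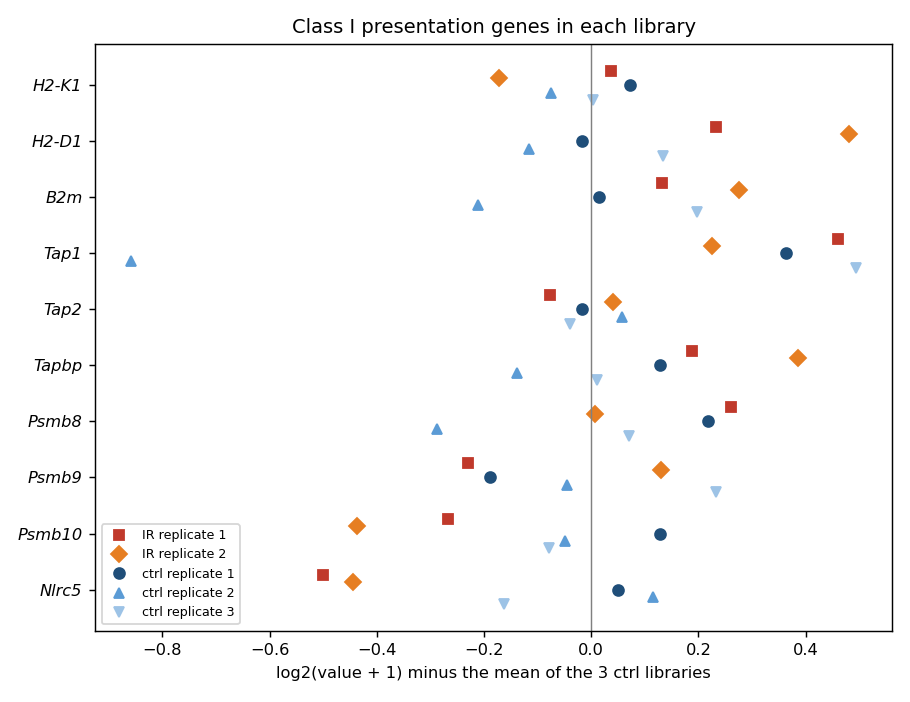
Points give log2(value + 1) minus the ctrl mean (x axis) for each of the 10 class I presentation genes (rows) in the 2 IR and 3 ctrl libraries. Both IR libraries lie right of all ctrl libraries for H2-D1 and Tapbp and left of them for Psmb10 and Nlrc5; the low Tap1 point is ctrl replicate 2.

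The class I chains were the most abundant of the 10, and none of them passed the test. H2-D1, a classical class I heavy chain (chromosome 17, 35262730 to 35267499, plus strand), had 17860 and 21209 scaled counts in the IR libraries and 15007, 14018 and 16666 in the ctrl libraries. Both IR libraries were above every ctrl library, replicate 2 the more so. Its log2 fold change was 0.36 (SE 0.17; adjusted p = 0.330 by limma), with a 95% interval from 0.002 to 0.71. H2-K1, the other classical heavy chain (chromosome 17, 33996017 to 34000347, minus strand), had 7745 and 6696 in the IR libraries and 7934, 7167 and 7562 in the ctrl libraries. IR replicate 2 was the lowest of the 5 and IR replicate 1 lay among the ctrl values. The log2 fold change of H2-K1 was -0.07 (SE 0.18; adjusted p = 0.897 by limma), with a fold interval of 0.740 to 1.23. B2m, the light chain (chromosome 2, 122147686 to 122153083, plus strand), had 9630 and 10640 in the IR libraries and 8871, 7592 and 10075 in the ctrl libraries. The B2m groups overlapped, and its log2 fold change was 0.20 (SE 0.18; adjusted p = 0.645 by limma).

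Within a library, a ratio of 2 genes is unaffected by scaling with 1 factor for all genes; the sources used here do not state whether the authors scaled in that way. The ratio of H2-D1 to H2-K1, chosen after their values were seen and therefore given without a test, was 2.31 and 3.17 in the IR libraries and 1.89, 1.96 and 2.20 in the ctrl libraries. Both IR ratios lay above every ctrl ratio, IR replicate 1 by a small margin. The heavy chain genes resemble each other: of all 50-base windows in H2-D1 protein-coding transcripts (GENCODE vM21), 13.9% also occur in another gene, mostly H2-Q1 (6.68%) and H2-K1 (5.58%), and for H2-K1 6.87% do. At 100 bases the shares were 4.09% for H2-D1 and 0% for H2-K1. How reads that fit several genes were counted is not given in the sources used here, so values of H2-D1 are the less certain of the pair. No 50-base window of B2m, Psmb10 or Nlrc5 was shared. For Tap2 the share was 12.1%, for Psmb9 9.71% (with Tap1), for Tap1 6.27% (mostly with Psmb9) and for Psmb8 5.51%.

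The peptide transport and loading genes gave no call. Tapbp, which encodes tapasin (chromosome 17, 33915899 to 33929292, plus strand), had 3102 and 3557 scaled counts in the IR libraries and 2974, 2471 and 2741 in the ctrl libraries. Both IR libraries exceeded all ctrl libraries, with IR replicate 1 close to ctrl replicate 1, and the log2 fold change was 0.29 (SE 0.19; adjusted p = 0.512 by limma). Of its 50-base windows, 18.9% also lie in Gm19412, annotated antisense to it. The library kit keeps the strand, but the strand setting of the counting is not given in the sources used here. Tap1, a subunit of the transporter (chromosome 17, 34187553 to 34197225, plus strand), had 1109 and 941 in the IR libraries and 1036, 444 and 1135 in the ctrl libraries. Ctrl replicate 2 had less than any other library, and the remaining 4 lay close together. The log2 fold change of Tap1 was 0.34 (SE 0.34; adjusted p = 0.689 by limma) with all libraries and -0.09 without ctrl replicate 2 (adjusted p = 0.911), so its sign rests on that library. Tap2, the partner subunit (chromosome 17, 34203527 to 34216321, plus strand), was the steadiest of the 10, with 760 and 825 in the IR libraries and 792, 835 and 780 in the ctrl libraries. Its highest value was in ctrl replicate 2, the library with the lowest Tap1. The log2 fold change of Tap2 was -0.02 (SE 0.23; adjusted p = 0.978 by limma), a fold interval of 0.711 to 1.37. Ctrl replicate 2 held the lowest value for 5 of the 10 genes, IR replicate 1 for 3 and IR replicate 2 for 2.

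None of the immunoproteasome subunits passed the test. Psmb8, the interferon-induced counterpart of Psmb5 (chromosome 17, 34197721 to 34201454, plus strand), had 1448 and 1215 scaled counts in the IR libraries and 1406, 989 and 1270 in the ctrl libraries. The groups overlapped, and the log2 fold change was 0.13 (SE 0.22; adjusted p = 0.824 by limma). Psmb9, the counterpart of Psmb6 (chromosome 17, 34181987 to 34187764, minus strand), had 149 and 191 in the IR libraries and 153, 169 and 205 in the ctrl libraries. The lowest of these was in IR replicate 1 and the highest in ctrl replicate 3, and the log2 fold change was -0.05 (SE 0.41; adjusted p = 0.968 by limma). Although Tap1 and Psmb9 start from a shared stretch of DNA, the low Tap1 value of ctrl replicate 2 had no match in Psmb9, whose 169 there was the middle value of the 5. These genes overlap by 212 bases on opposite strands, and the strand setting of the counting is not given in the sources used here. Psmb10, the counterpart of Psmb7 (chromosome 8, 105935735 to 105938444, minus strand), had 234 and 208 in the IR libraries and 308, 272 and 267 in the ctrl libraries. Both IR libraries lay below every ctrl library. The log2 fold change of Psmb10 was -0.35 (SE 0.34; adjusted p = 0.673 by limma), a fold of 0.783 with an interval from 0.482 to 1.27.

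Nlrc5, which is recruited to the class I promoters and raises their transcription (chromosome 8, 94434356 to 94527272, plus strand), had the most negative fold change of the 10. It had 397 and 414 scaled counts in the IR libraries and 582, 609 and 502 in the ctrl libraries. The IR libraries were close to each other and below all ctrl libraries. The log2 fold change was -0.47 (SE 0.27; adjusted p = 0.413 by limma), a fold of 0.721 with an interval from 0.493 to 1.05.

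**Figure D2:**
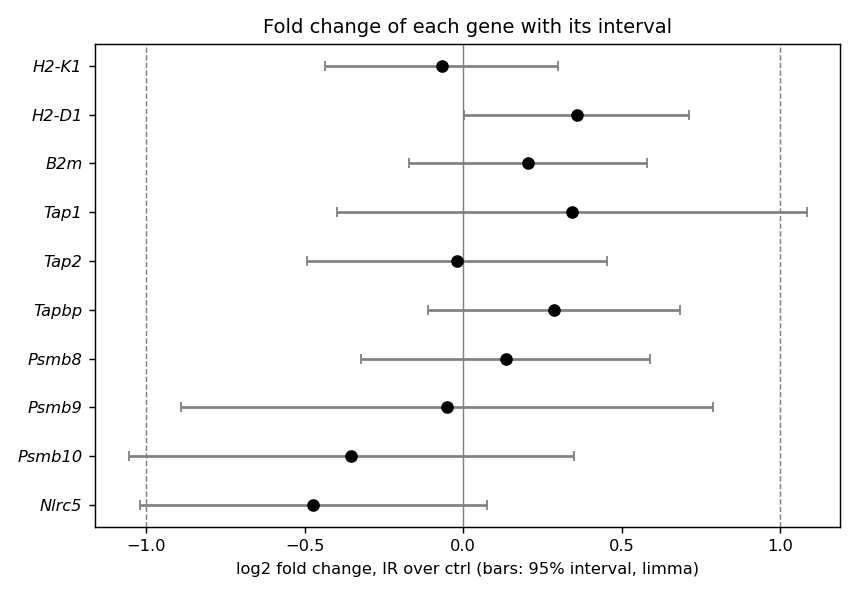
Log2 fold change of IR over ctrl (x axis) for each gene, with its 95% interval from limma; dashed lines mark a 2-fold change. Intervals of Tap1, Psmb10 and Nlrc5 cross a dashed line, and that of H2-D1 ends just above 0.

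The balance of immunoproteasome against constitutive subunits was compared as the ratio of each induced subunit to the one whose place it takes. The mean log2 ratio over the 3 pairs was 0.57 and 0.71 in the IR libraries and 1.15, 0.99 and 1.44 in the ctrl libraries. Both IR libraries were below every ctrl library. The difference was -0.56, with means of 0.64 ± 0.10 in IR (SD, n = 2) and 1.19 ± 0.23 in ctrl (SD, n = 3); the two-sided exact permutation test over the 5 libraries gave p = 0.1, the smallest it can give. By pair, Psmb10 over Psmb7 differed by -0.88 on the log2 scale, with ratios of 0.906 and 0.478 in the IR libraries and 1.21, 1.30 and 1.13 in the ctrl libraries. That pair alone had groups that did not overlap (exact permutation p = 0.1, adjusted over the 3 pairs 0.3). Psmb8 over Psmb5 differed by -0.57 and Psmb9 over Psmb6 by -0.22, with overlapping groups (exact permutation p = 0.4 and 0.5, both 0.5 adjusted). Psmb5, the least abundant of the 6, had 135 and 56.3 scaled counts in the IR libraries and 51.5, 84.0 and 34.2 in the ctrl libraries, which leaves its ratio wide. Psmb7 had 258 and 435 in the IR libraries and 254, 209 and 235 in the ctrl libraries. Both IR values lay above the ctrl values, IR replicate 1 by a small margin, and Psmb7 did not pass limma (log2 fold change 0.53 ± 0.35 SE, adjusted p = 0.503); nor did Psmb5 (0.71 ± 0.67 SE, adjusted p = 0.666) or Psmb6 (0.17 ± 0.29 SE, adjusted p = 0.835).

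**Figure D3:**
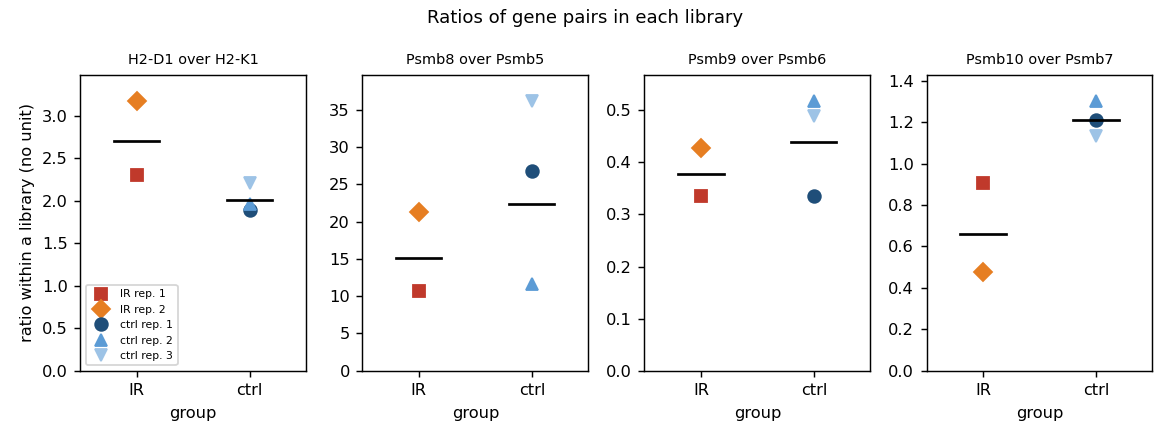
Ratio of scaled counts within each library (y axis) for H2-D1 over H2-K1 and for each induced proteasome subunit over its constitutive counterpart; points are libraries and bars geometric means. Groups are apart for H2-D1 over H2-K1 (IR above) and for Psmb10 over Psmb7 (IR below).

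Per kilobase of the principal GENCODE transcript, the order of levels was the same in both groups: B2m, H2-D1, H2-K1, Tapbp, Psmb8, Tap1, Tap2, Psmb10, Psmb9 and Nlrc5. B2m had 11785 ± 830 scaled counts per kilobase in IR (SD, n = 2) and 10286 ± 1444 in ctrl (SD, n = 3). H2-D1 had 9293 ± 1126 in IR and 7246 ± 636 in ctrl, and H2-K1 had 4460 ± 458 in IR and 4666 ± 237 in ctrl. At the low end, Nlrc5 had 53.5 ± 1.51 in IR and 74.5 ± 7.34 in ctrl. In ctrl the ranges of Tapbp and Psmb8, of Tap1 and Tap2, and of Tap2 and Psmb10 overlapped. Within each ctrl library, however, Tapbp was above Psmb8 (1026 against 863, 853 against 608 and 946 against 780). The order of Tap1 and Tap2, and of Tap2 and Psmb10, was not the same in all ctrl libraries. In IR no neighbouring ranges overlapped, but a range of 2 libraries is not comparable to a range of 3. The order among Tap1, Tap2 and Psmb10, and of Psmb9 and Nlrc5, depends on the length used: with all annotated exons merged, Tap2 came before Tap1, and Nlrc5 before Psmb9, in both groups. The 10 genes together took 0.562% and 0.545% of the scaled total in the IR libraries and 0.540%, 0.472% and 0.555% in the ctrl libraries, and H2-D1 alone made up 42.1% and 46.2% of that sum in the IR libraries and 38.4% to 40.6% in ctrl.

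**Figure D4:**
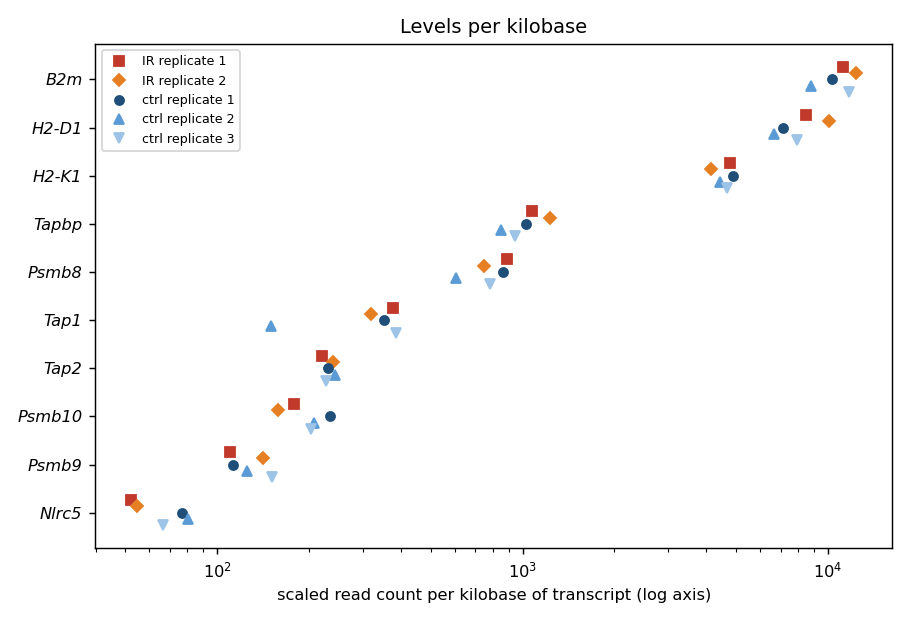
Scaled count per kilobase of transcript (x axis, log scale) for the 10 genes in every library, ordered by the ctrl mean. B2m, H2-D1 and H2-K1 lie above the other genes, and Nlrc5 lies lowest, in every library.

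Across the 5 libraries, the 10 genes differed in pattern. As a measure of likeness, the log2(value + 1) profile of each gene was centred on its mean, and the root mean square difference between profiles was taken; smaller is more alike. The most alike pairs were H2-D1 with Tapbp (0.09) and H2-D1 with B2m (0.10), and the least alike was Tap1 with Nlrc5 (0.68). The mean profile of the 10 was nearly flat, from -0.18 in ctrl replicate 2 to 0.07 in ctrl replicate 3, with 0.01 and 0.03 in the IR libraries. Among 7389 other genes with a mean of at least 100 scaled counts, the nearest to that mean profile were Paip2, Vps35l, Casp2, Bap1 and Hps3, at 0.013, 0.022, 0.027, 0.030 and 0.034. These 5 were picked as the nearest of 7389, and a nearly flat profile lies near any gene that varies little. The 10 genes themselves lay between 0.10 (H2-K1) and 0.42 (Tap1) from it. They were not picked for nearness, so the 2 sets of distances are not comparable.

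Of 14 other class I and class I-like heavy chains tested, 1 was higher in IR (1.14% of all genes tested), 0 were lower (0.36%) and 13 did not pass, with a median log2 fold change of -0.27. The gene that rose was H2-Q10, which encodes a secreted class I molecule known mainly from liver. H2-Q10 had 934 and 1753 scaled counts in the IR libraries and 429, 521 and 769 in the ctrl libraries, a log2 fold change of 1.20 (SE 0.29; adjusted p = 0.0391 by limma). The groups did not overlap, but the call was lost without ctrl replicate 1 (adjusted p = 0.254), ctrl replicate 2 (0.188) or IR replicate 2 (0.357, log2 fold change 0.75). Of its 50-base windows, 7.73% also occur in other genes. In this list 5 of 14 genes were lower in both IR libraries than in any ctrl library, beside 16.3% of all genes. These were H2-Q4, H2-Q6, H2-Q7, H2-T10 and Fcgrt, named after their values were seen, with log2 fold changes from -1.40 (H2-T10) to -0.37 (Fcgrt) and none called. H2-Q4, H2-Q6 and H2-Q7 share 39.2%, 35.0% and 34.9% of their 50-base windows with other genes, so reads of these 3 may have been split among copies.

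Of 13 receptors that read class I, 1 rose (1.14% of all genes tested), 0 fell (0.36%) and 12 did not pass, with a median log2 fold change of -0.10. The 1 that rose was Pirb, an inhibitory receptor of myeloid cells and B cells that binds class I. Pirb had 2013 and 2899 in the IR libraries and 1313, 1405 and 1329 in the ctrl libraries, a log2 fold change of 0.84 (SE 0.21; adjusted p = 0.0414 by limma). All IR values were above all ctrl values. The call was lost without ctrl replicate 1 (adjusted p = 0.237), ctrl replicate 2 (0.144), ctrl replicate 3 (0.167) or IR replicate 2 (0.357), and after scaling to library totals (0.0551). Of its 50-base windows, 37.3% occur in related genes such as Pira2. In the same libraries the neutrophil markers summed to 63379 and 120645 in IR and 25521 to 45836 in ctrl. Their part in the Pirb value was not tested. Of the 13 receptors, 2 (Pirb and Cd160) were higher in both IR libraries than in any ctrl library (15.2% of all genes). Another 2, Cd8b1 and Klra8, were lower (16.3%), with log2 fold changes of -0.74 and -1.33. Cd160, Cd8b1 and Klra8 did not pass and were named after their values were seen.

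No gene passed limma in the other 7 lists, of 56 genes tested, and 7 had an unadjusted p under 0.05, beside 15.0% of all genes. Among 7 genes of loading chaperones and of the trimming peptidase in the endoplasmic reticulum (median log2 fold change -0.15), the most abundant were Calr, Canx and Pdia3, which fold class I chains, with log2 fold changes of -0.09, -0.15 and 0.04. Among 6 cytosolic peptidases (median -0.05), Tpp2, which trims long peptides, had 820 and 690 scaled counts in the IR libraries and 1142, 1446 and 980 in the ctrl libraries. Tpp2 was the 1 gene of these 6 whose groups did not overlap (16.3% of all genes were lower in this way). Its log2 fold change was -0.64 (SE 0.23, adjusted p = 0.180 by limma). Nrd1 and Npepps had 0.21 and 0.12. Among 9 proteasome activators and assembly factors (median 0.04), Psme1, Psme4 and Psme3 had log2 fold changes of 0.04, 0.11 and -0.21. The 14 transcription factors of class I genes had a median of -0.15, and Irf1 and Irf2, which bind interferon-response elements, had log2 fold changes of 0.23 and 0.49, and Nfkb1, a kappa B subunit, -0.17. Rfx5, which binds class I promoters together with Nlrc5 and was singled out after its values were seen, had 153 and 47.0 in the IR libraries and 203, 217 and 313 in the ctrl libraries. Both IR values of Rfx5 lay below all ctrl values. Its log2 fold change was -1.48 (SE 0.48, adjusted p = 0.127 by limma). Of the 14 factors, 2 were lower in this way (Rfx5 and Ciita), beside 16.3% of all genes, and 0 were higher (15.2%). Ciita, Rfxap and Rfxank, also named after their values were seen, had log2 fold changes of -0.49, -0.22 and -0.94. The groups overlapped for Rfxap and Rfxank.

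Genes of interferon gamma signalling and its targets outside class I presentation were likewise mixed. The 7 signalling genes tested had a median log2 fold change of 0.12. Jak1 and Ifngr1, the kinase and a receptor chain, had -0.02 and 0.12. Socs3, a feedback inhibitor of cytokine signalling, had 3271 and 4403 scaled counts in the IR libraries and 1857, 2282 and 2660 in the ctrl libraries. Socs3 was the 1 gene of these 7 that was higher in both IR libraries than in any ctrl library (15.2% of all genes). Its log2 fold change was 0.76 (SE 0.21, adjusted p = 0.0651 by limma). The 10 targets tested had a median of 0.16 and ranged from -1.88 to 1.08. Gbp2, an interferon-induced GTPase, had 641 and 1173 in the IR libraries and 358, 387 and 495 in the ctrl libraries. The Gbp2 groups did not overlap, and its log2 fold change was 1.08 (SE 0.28; adjusted p = 0.0530 by limma). Of these 10 targets, 2 (Gbp2 and Igtp) were higher in both IR libraries than in any ctrl library, beside 15.2% of all genes. Another 2 (Gbp3 and Gbp4, of the GTPase family of Gbp2) were lower, beside 16.3%. Igtp had 180 and 203 in the IR libraries and 146, 132 and 101 in the ctrl libraries. Its log2 fold change was 0.60 (SE 0.43, adjusted p = 0.546 by limma). Igtp, Gbp3 and Gbp4 did not pass and were named after their values were seen. Gbp3 had 296 and 236 in the IR libraries and 584, 418 and 346 in the ctrl libraries, a log2 fold change of -0.73 (SE 0.31; adjusted p = 0.278 by limma). Gbp4 had 108 and 23.5 in the IR libraries and 150, 170 and 270 in the ctrl libraries, a log2 fold change of -1.88 (SE 0.57; adjusted p = 0.104 by limma). Icam1 and Cd274 had log2 fold changes of -0.01 and 0.20.

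**Figure D5:**
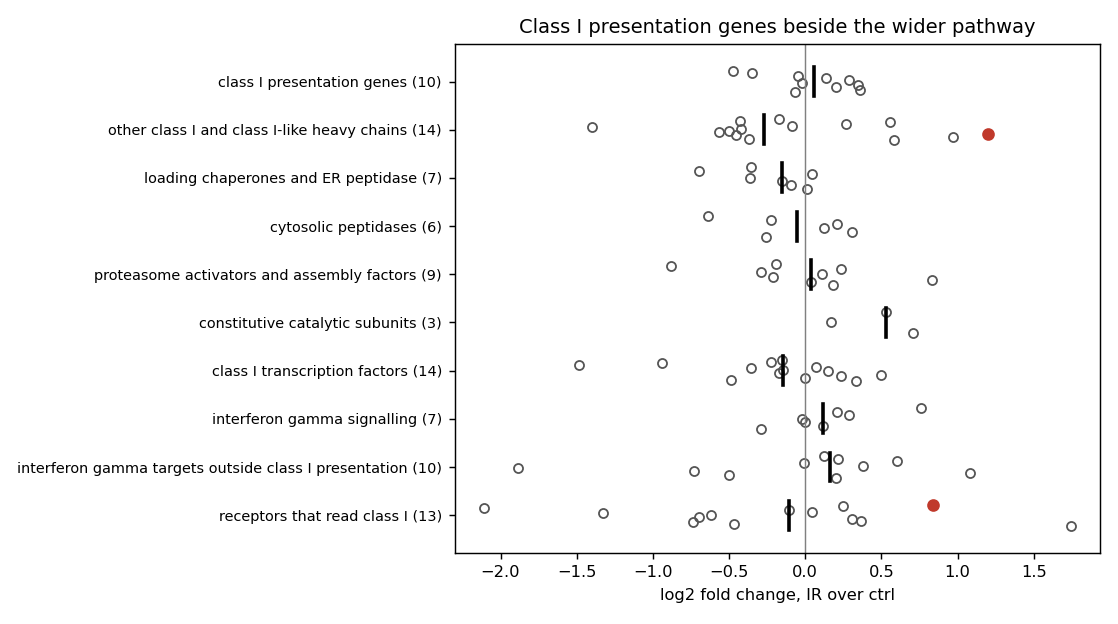
Log2 fold change of IR over ctrl (x axis) for the genes tested in each list (rows, number tested in brackets); filled points passed limma at an adjusted p under 0.05, open points did not, and bars are list medians. The 2 filled points are H2-Q10 and Pirb, and the median of the 10 class I presentation genes is 0.06.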

How the data were processed

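The authors deposited read counts per gene scaled between libraries, a signal with 1 decimal in 5 columns, 1 per library; HISAT2, HTSeq and mm10 are named per the submitters' processing notes, without role. Their scaling, annotation, strand setting and filters are not stated there. Values near 0 step in near multiples of 0.7 to 0.9 per library, but the step drifts between genes, so whole reads were not recovered and counting error is unknown. Libraries were prepared with the SMARTer Pico kit, which keeps the strand, per the labels.

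Libraries were grouped by treatment label; replicate numbers follow accession order. The 12777 rows reaching 10 in 2 or more libraries were fitted as log2(value + 1) with limma 3.58.1 (R 4.3.3), mean trend and robust estimation, no covariate, and Benjamini-Hochberg adjustment over all rows. Fold changes are on that scale, which understates changes of low genes; tests are two-sided. The mean ratio was compared by an exact permutation test over the 5 libraries. On simulated data made for this comparison (12777 genes, 200 changed), the fit recovered 22% of 2-fold and 53.1% of 4-fold changes. It recovered 47.7% of 2-fold changes among genes at 200 or more, and 5.01% of its calls were false. The simulated noise was independent between libraries, with 1 spread for genes of the same level, taken from the ctrl libraries. It held no separate spread for IR and no shift of a whole library, so these shares need not hold for the measured values. Alternatives covered scaling, pseudocount, filter, variance settings and leaving out each library. Names and coordinates come from GENCODE vM21, built on GRCm38, to which mm10 corresponds; it held all 10 genes. The genes and lists were chosen with earlier results of these data known. Named outside the 10 were called genes of each list, otherwise its 3 most abundant, the 3 constitutive proteasome subunits and the 5 nearest profiles. Added after their values were seen were H2-Q4, H2-Q6, H2-Q7, H2-T10, Fcgrt, Cd160, Cd8b1, Klra8, Rfx5, Ciita, Rfxap and Rfxank. So were Igtp, Gbp3, Gbp4, Psma3, Psma5, Psma7 and the lung epithelium markers with values.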

Additional observations from a re-analysis of the deposited data

How the results depend on the processing

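None of the 10 class I presentation genes passed limma under any of the 15 alternatives (150 values, lowest adjusted p = 0.114). Where the number of genes called among all tested, 192, changed by over 1.5 times, it was 314 with a pseudocount of 10, 0 without the mean trend (1245 genes had an unadjusted p under 0.05 in that limma fit), 19, 23 and 95 without ctrl replicates 1, 2 and 3, and 1006 and 96 without IR replicates 1 and 2; the cause was not tested. H2-D1, B2m, Tapbp, Psmb10 and Nlrc5 kept their sign in all 15. In 8 values of H2-K1, Tap1, Tap2, Psmb8 and Psmb9 the sign changed, at log2 fold changes between -0.09 and 0.13. The median of the 10 ran from -0.04 to 0.12 with 1 library left out. The difference in the immunoproteasome ratio stayed negative, from -0.66 to -0.43 with 1 library left out, -0.56 with a pseudocount of 0.5 and -0.52 with 10. H2-Q10 and Pirb also missed the threshold with robust estimation off (adjusted p = 0.0563 and 0.0564) and without the mean trend (0.506 and 0.493), H2-Q10 with array weights (0.0563) and Pirb without the filter (0.0578). The planned tests on whole reads were not run, since whole reads were not recovered. No paired analysis was possible because replicate numbers follow accession order only and pair no libraries. With 2 IR libraries, changes of 2-fold or less can be missed at higher levels too. The simulated fit, with noise simpler than that of the data, recovered 47.7% of 2-fold changes among genes at 200 or more. Among the 10, such changes are resolved least well where the SE is largest, in Psmb9 (0.41), Tap1 (0.34) and Psmb10 (0.34). Psmb9 and Psmb10 had the lowest scaled counts of the 10. Tap1 did not, but had a low value in ctrl replicate 2.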

Other observations

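The 20S core of the proteasome has further subunits that carry neither induced nor replaceable catalytic sites, described here together with Psmb5, Psmb6 and Psmb7 as all 14 remaining Psma and Psmb genes tested, a list added after the data were seen. None passed limma (1.5% of all genes tested did), and 0 had an unadjusted p under 0.05, beside 15.0% of all genes. Fold changes were positive for 7 and negative for 7, with a median log2 fold change of 0.00 and a range from -0.87 for Psma5 to 0.71 for Psmb5. Psma7, a structural subunit, had 868 and 852 scaled counts in the IR libraries and 780, 584 and 676 in the ctrl libraries. It and Psmb7 were higher in both IR libraries than in any ctrl library, and Psma3, with 105 and 61.3 in the IR libraries and 144, 134 and 158 in the ctrl libraries, was lower (groups did not overlap for 31.5% of all genes tested); these 3 were named after their values were seen.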
